A study of Mus musculus with 4 samples.

Results

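A set of 9 receptors and factors that mark exhausted T cells was followed in single-cell RNA sequencing of immune cells from melanoma-bearing mice. They were Pdcd1, Lag3, Havcr2, Tigit, Entpd1, Slamf6, Tox, Eomes and Rgs16. The genes were taken by symbol and were 9 of the 32285 genes in each of the 4 deposited count matrices. All 9 were found in every matrix. They were read in T and NK cells gated on UMIs (unique molecular identifiers, each standing for 1 captured RNA molecule) of Cd3d, Cd3e, Cd3g, Cd8a, Cd8b1, Cd4, Foxp3 and Ncr1, and were compared between genotypes.

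T cells that meet antigen for a long time, as in a tumour, can enter a state called exhaustion, in which inhibitory receptors stay on the surface and cytokine output falls. PD-1 (Pdcd1), LAG-3 (Lag3), TIM-3 (Havcr2) and TIGIT (Tigit) are inhibitory receptors, each with its own ligands on tumour or myeloid cells. The DNA-binding protein TOX sets up the exhausted program. A progenitor pool with TCF-1 (Tcf7) and the Slam family receptor Ly108 (Slamf6) feeds a terminal pool with TIM-3 and the ectonucleotidase CD39 (Entpd1).

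Each library held cells of 3 male C57BL/6 mice, pooled in equal cell numbers; another passage of the labels gives the pools as 3 to 4 mice. The mice were 8 weeks old and were sampled on day 18 after B16-F10 melanoma cells, a mouse melanoma line, were implanted under the skin. The 4 libraries were CD45+ cells of tumours from wild-type mice, the same from Ndufa4-deficient mice, and CD45+ CD11b+ spleen cells of each genotype (WT and KO from here on). Ndufa4 encodes a subunit associated with respiratory complex IV. Which part of the gene was deleted, and in which cells, is not given here. The CD11b sort removes most splenic T cells, so the spleen libraries served mainly for NK cells. With 1 pooled library per group there was no replicate, no test was possible, and every interval below is a 95% interval for counting error only.

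A level is the gene's UMIs per 1000000 UMIs of the gated cells (CPM), summed over the cells of a gate. Genes were called higher or lower where the levels differed at least 1.5-fold and at least 30 UMIs were counted over both libraries. Ratios are given as log2 of KO over WT. The 4 libraries held 46499361 to 63560706 UMIs in 4798 to 8107 barcodes, of which 3861 to 7041 per library were kept. Any 2 libraries shared 6 to 22 barcodes, at most 0.359% of a library. In the tumour, CD8 T cells numbered 455 in WT and 1295 in KO, which was 11.8% and 29.3% of the kept cells. Median depth in those cells was 10849 UMIs in WT and 12032 in KO.

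Ndufa4 itself was read first, as a check of the genotype labels. Its level in tumour CD8 T cells was 395 CPM in WT against 8.45 CPM in KO. In spleen NK cells it was 355 CPM in WT, and a single UMI was counted in KO. The tumour KO library thus kept a low Ndufa4 signal, and the level was lower in KO in every gate compared.

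The gates carried the markers of their types, though several also held markers of other cells, given with each. Tumour CD8 T cells held all 8 independent T cell markers, at a summed level of 3429 CPM in WT against 4175 CPM in KO. B cell markers summed to 7.11 and 4.33 CPM there, phagocyte markers to 215 and 405 CPM, and melanoma markers to 17.6 and 69.8 CPM. The NK marker list summed to 264 CPM in WT against 786 CPM in KO CD8 T cells, with 8 and 9 of its 9 genes detected. Gzma and Xcl1, which activated CD8 T cells also make, belong to that list. The part of these markers in the results on CD8 T cells was not tested.

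The promoters are shown for 3 members. Slamf6 and Eomes were the members that were lower in KO CD8 T cells, and Havcr2 was level there while it differed in NK cells. Each sequence is the 250 bases before the RefSeq start site in GRCm38.p6, 5′ to 3′ along the gene's own strand. RefSeq promoters matched 7 of the 9 members, with 8 entries since Entpd1 has a pair of start sites; Lag3 and Tox had no entry. Eomes lies on the plus strand and its window is chr9:118477939-118478188, that of Slamf6 on the plus strand is chr1:171917212-171917461, and that of Havcr2 on the plus strand is chr11:46454681-46454930. Capitals mark the match to the AP-1 motif.
Eomes: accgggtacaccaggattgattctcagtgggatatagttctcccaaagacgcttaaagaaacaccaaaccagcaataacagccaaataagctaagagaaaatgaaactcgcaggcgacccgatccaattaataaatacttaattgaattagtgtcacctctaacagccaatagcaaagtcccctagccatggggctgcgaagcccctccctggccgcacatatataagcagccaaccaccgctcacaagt
Slamf6: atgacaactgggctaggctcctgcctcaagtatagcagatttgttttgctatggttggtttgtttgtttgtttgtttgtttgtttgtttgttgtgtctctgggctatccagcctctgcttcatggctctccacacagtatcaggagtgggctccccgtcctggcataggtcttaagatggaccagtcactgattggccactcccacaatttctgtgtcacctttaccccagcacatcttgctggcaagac
Havcr2: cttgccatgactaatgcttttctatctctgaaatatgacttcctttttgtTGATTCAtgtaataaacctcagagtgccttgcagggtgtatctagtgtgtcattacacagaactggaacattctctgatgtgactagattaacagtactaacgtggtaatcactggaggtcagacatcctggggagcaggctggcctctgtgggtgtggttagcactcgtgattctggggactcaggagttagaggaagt

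A set of 6 motifs was searched on both strands of windows from 250 bases before to 50 bases after each start site. TGANTCA (AP-1) stood in 7.81% of the 32851 RefSeq promoters of that length, AAAGGTCA (the NR4A monomer site) in 1.51%, and CTTTGA (TCF) in 16% of them. GGTGTGA (T-box) stood in 3.98%, GGAAAA (NFAT) in 23.4% and TTCNNNGAA (STAT) in 8.30%. Among the members, Havcr2 held an AP-1 match whose first base was at -200 from the start site. Tigit held an NFAT match at -14, and the second start site of Entpd1 held one at -233. The windows of Pdcd1, Slamf6, Eomes and Rgs16 held none of these letters. A match is a description of the letters and not a measured site.

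Across the gates of the WT tumour, Pdcd1, Havcr2, Tox and Rgs16 had their highest level in CD8 T cells. Lag3 shared its highest level with plasmacytoid dendritic cells, and Tigit was too sparse to order the T and NK gates. Pdcd1 (ENSMUSG00000026285, chr1:94038305-94052553, minus strand in GRCm38 with GENCODE vM21, as for all positions of genes here) stood at 288 CPM in CD8 T cells and 105 CPM in regulatory T cells. Next came double-negative T cells (CD3 UMIs with no Cd8a, Cd8b1, Cd4 or Foxp3) at 41.3 CPM and conventional CD4 T cells at 37.6 CPM, whose intervals overlapped. Conventional dendritic cells followed at 7.90 CPM. In the KO tumour the order changed in the middle: conventional CD4 T cells at 121 CPM and regulatory T cells at 99.2 CPM overlapped.

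Lag3 (ENSMUSG00000030124, chr6:124904361-124911705, minus strand), an inhibitory receptor that binds MHC class II, was as high outside the T cells. Plasmacytoid dendritic cells held 227 CPM and CD8 T cells 216 CPM in WT, with overlapping intervals. Regulatory T cells held 110 CPM in WT. In KO the 3 gates could not be ordered, at 238 CPM in regulatory T cells, 237 CPM in CD8 T cells and 234 CPM in plasmacytoid dendritic cells.

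Havcr2 (ENSMUSG00000020399, chr11:46454935-46481255, plus strand) was shared with myeloid cells, where TIM-3 is also known. In the WT tumour it stood at 183 CPM in CD8 T cells, 116 CPM in mononuclear phagocytes, 84.0 CPM in regulatory T cells and 62.7 CPM in conventional dendritic cells. Tigit (ENSMUSG00000071552, chr16:43648867-43664146, minus strand), which competes for CD155 (Pvr) on other cells, had low counts throughout. Regulatory T cells at 13.4 CPM, CD8 T cells at 11.6 CPM, conventional CD4 T cells at 4.90 CPM and NK cells at 3.67 CPM overlapped in WT, while in KO regulatory T cells at 24.9 CPM stood above CD8 T cells at 10.1 CPM.

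Entpd1 (ENSMUSG00000048120, chr19:40612366-40741602, plus strand) cleaves extracellular ATP and was highest in neutrophils, at 491 CPM in the WT and 323 CPM in the KO tumour. Regulatory T cells at 104 CPM and phagocytes at 88.2 CPM overlapped in WT, and CD8 T cells stood at 76.5 CPM. Slamf6 (ENSMUSG00000015314, chr1:171917515-171953170, plus strand) had another order, with conventional CD4 T cells first at 176 CPM. Double-negative T cells at 102 CPM and B cells at 80.1 CPM overlapped next, and plasmacytoid dendritic cells, regulatory T cells and CD8 T cells overlapped at 51.0, 47.0 and 43.0 CPM.

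Tox and Eomes had different orders. Tox (ENSMUSG00000041272, chr4:6686353-6991557, minus strand) stood at 361 CPM in WT tumour CD8 T cells, 127 CPM in regulatory T cells, 73.5 CPM in conventional CD4 T cells and 60.0 CPM in NK cells, the last 2 overlapping. Eomes (ENSMUSG00000032446, chr9:118478212-118486132, plus strand), a T-box factor that NK cells and memory CD8 T cells need, was highest in NK cells at 323 CPM, before CD8 T cells at 143 CPM and double-negative T cells at 27.1 CPM. Rgs16 (ENSMUSG00000026475, chr1:153740349-153745468, plus strand) is a regulator of G protein signalling that shortens signals from chemokine receptors. It stood at 157 CPM in CD8 T cells, while regulatory T cells at 29.1 CPM and conventional CD4 T cells at 18.0 CPM overlapped far below.

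**Figure D1:**
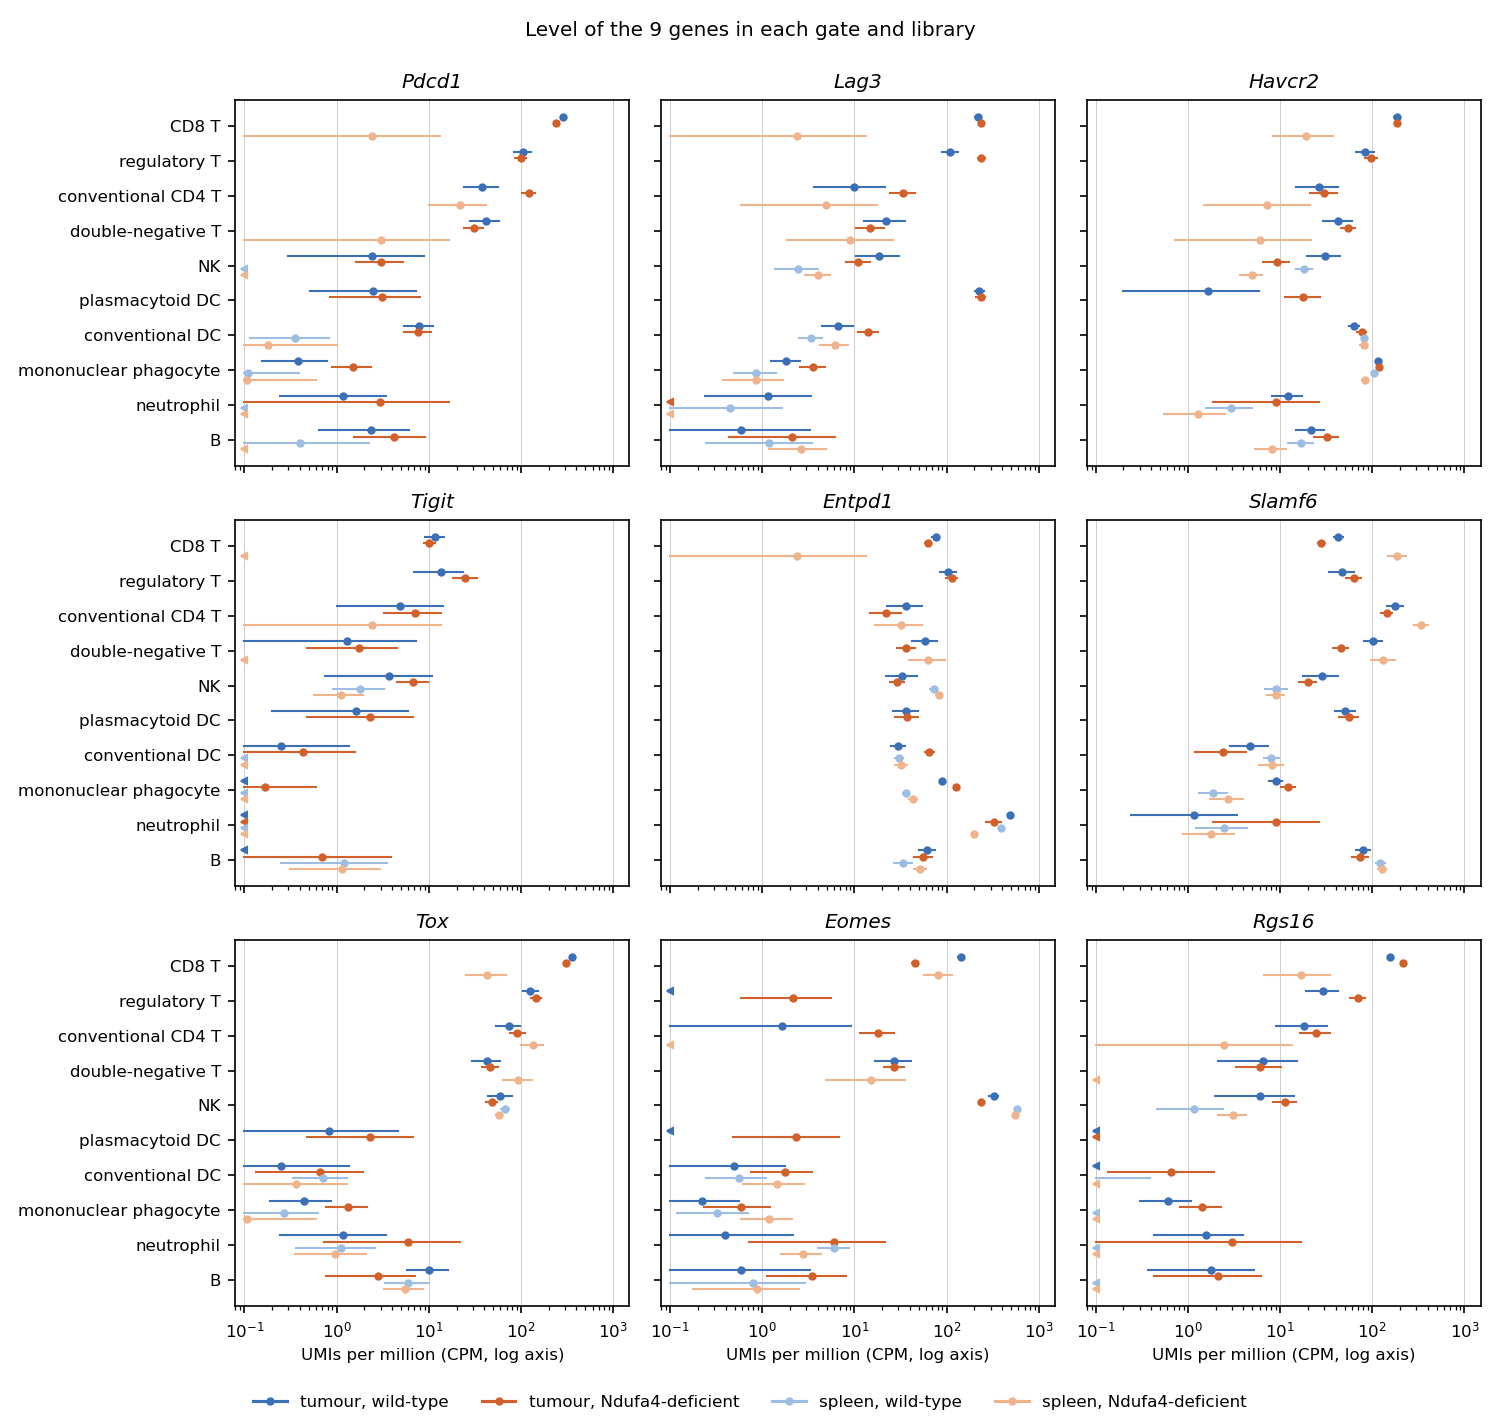
Level of each of the 9 genes (CPM, log axis) in each gate with at least 50 cells, by library, with 95% counting intervals; left-pointing triangles mark 0 UMIs. Eomes is highest in NK cells, Entpd1 in neutrophils, and Slamf6 in conventional CD4 T cells among the WT tumour gates.

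In tumour CD8 T cells the inhibitory receptors were close between genotypes, while Eomes and, to a smaller degree, Slamf6 were lower in KO. None of the 9 members was at least 1.5-fold higher in KO, beside 7.05% of the 11581 genes counted in that gate. Slamf6 and Eomes, 2 of 9, were at least 1.5-fold lower, beside 6.8% of those genes. The median log2 ratio was -0.23 over the 9 members and -0.03 over all genes counted.

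Among the receptors, Pdcd1 stood at 288 CPM in WT against 240 CPM in KO (1861 and 4716 UMIs), a log2 ratio of -0.26 (interval -0.34 to -0.18). Lag3 stood at 216 and 237 CPM, a log2 ratio of 0.13 (0.04 to 0.22). Havcr2 stood at 183 and 185 CPM, a log2 ratio of 0.01 (-0.09 to 0.11). The interval of each of these 3 receptors lies within 1.5-fold. Tigit stood at 11.6 and 10.1 CPM (75 and 199 UMIs), a log2 ratio of -0.19 with a wide interval (-0.59 to 0.21). Entpd1, which accompanies TIM-3 on terminal cells, stood at 76.5 and 62.0 CPM, a log2 ratio of -0.30 (-0.45 to -0.15).

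Slamf6, the progenitor receptor, was 43.0 CPM in WT against 28.0 CPM in KO (278 and 551 UMIs), a 1.53-fold lower level with a log2 ratio of -0.62 (-0.83 to -0.40). That is just past the 1.5-fold limit, and its counts were uneven, with the 10 highest cells holding 27.3% of the WT and 15.4% of the KO UMIs. Without those cells, an alternative chosen after seeing the data that takes 10 of 455 WT and 10 of 1295 KO cells, the levels were 31.2 and 23.7 CPM, a 1.32-fold difference that no longer reached 1.5-fold.

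Among the transcription factors, Tox was 361 CPM in WT against 308 CPM in KO, a log2 ratio of -0.23 (-0.30 to -0.16). Eomes was 143 CPM in WT against 45.2 CPM in KO (928 and 888 UMIs), a 3.17-fold lower level with a log2 ratio of -1.67 (-1.80 to -1.53). Eomes was thus the member that differed most in these cells, and it stayed apart without the 10 highest cells of each library, at 115 and 38.9 CPM (2.97-fold). Rgs16 was 157 CPM in WT against 217 CPM in KO (1013 and 4266 UMIs), 1.39-fold higher with a log2 ratio of 0.47 (0.37 to 0.57), which did not reach 1.5-fold. Without its 10 highest cells in each library it was 1.66-fold higher.

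**Figure D2:**
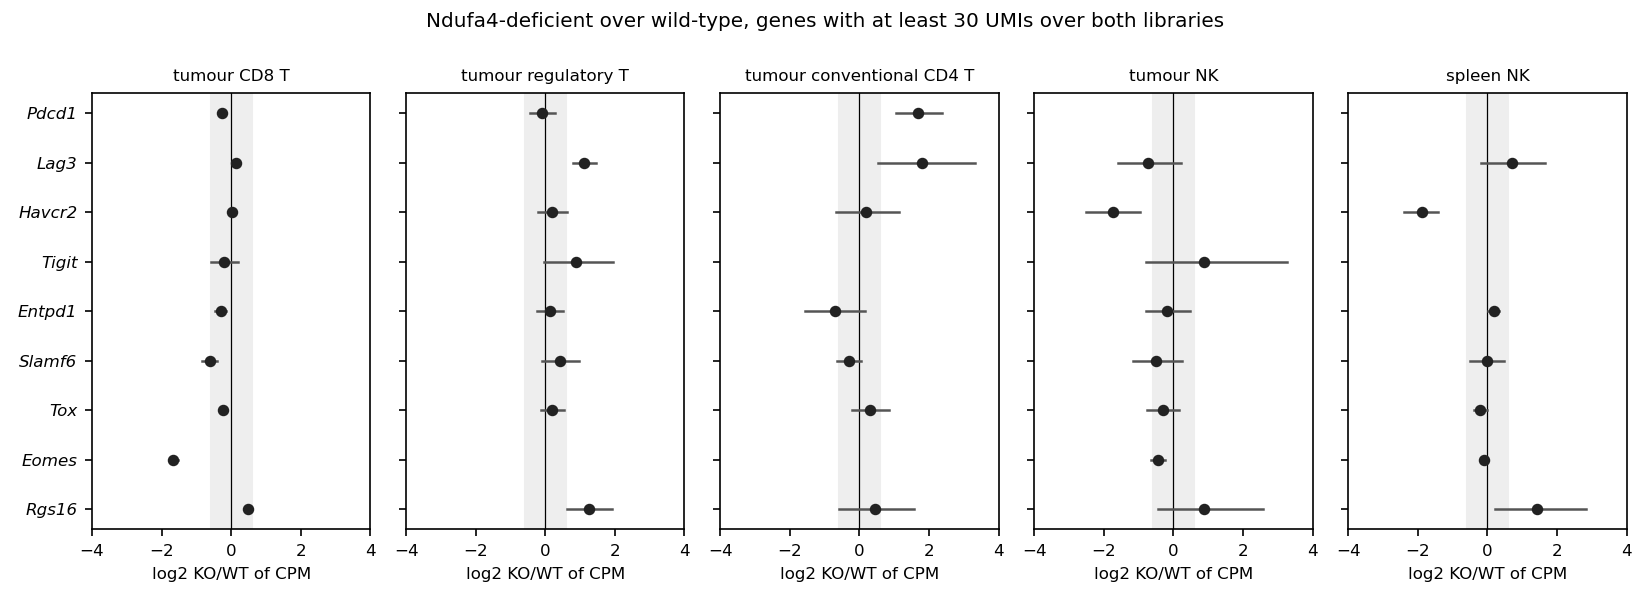
Log2 ratio of KO over WT level of each gene in the compared gates, with 95% counting intervals; the grey band marks differences under 1.5-fold, and genes with under 30 UMIs over both libraries are not drawn. In tumour CD8 T cells Eomes lies at -1.67 and Slamf6 at -0.62, while Havcr2 lies at 0.01.

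Shares of cells with a UMI were compared after each cell had been thinned to 2000 UMIs, since KO cells were deeper. This left 450 WT and 1285 KO CD8 T cells, with 5 and 10 shallower cells left out. Eomes was detected in 22.2% of WT and 7.94% of KO cells, a difference of -14.3 points (-18.6 to -10.3). Without thinning the shares were 56.0% and 31.2%. Slamf6 was detected in 10.7% and 5.53%, a difference of -5.14 points (-8.53 to -2.26), against 29.5% and 19.8% unthinned. The share of cells with a UMI of either gene was lower in KO under both readings, and also when cells were thinned to 1000 UMIs, at -5.90 points for Eomes and -2.40 points for Slamf6.

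Pdcd1 was detected in 37.8% of WT and 29.9% of KO thinned cells, a difference of -7.89 points (-13.1 to -2.84). Thinned to 1000 UMIs the difference was -2.34 points with an interval that spans 0 (-6.75 to 1.74), and unthinned the shares went the other way, at 66.6% and 71.0%. Rgs16 was detected in 19.1% and 24.1%, a difference of 5.01 points (0.52 to 9.16), and in 45.3% and 55.4% unthinned. The remaining receptors and Tox, thinned, were Lag3 at 29.1% and 33.1%, Havcr2 at 23.1% and 26.0%, Tigit at 2.22% and 2.10%, Entpd1 at 16.0% and 11.8%, and Tox at 44.2% and 38.0%. Unthinned, these were 58.9% and 70.7% for Lag3, 56.7% and 60.9% for Havcr2, 14.7% and 14.0% for Tigit, 48.4% and 45.6% for Entpd1, and 73.6% and 72.4% for Tox.

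Shares in other cell types, thinned in the same way, were read as a background. The tumour B cell gate was mixed: phagocyte markers summed to 12129 CPM in WT and 5828 CPM in KO, beside 2793 and 3019 CPM of B cell markers. Erythroid markers summed to 4715 and 5.59 CPM. Its shares, above all those of Havcr2 and Entpd1, which phagocytes also hold, thus cannot be read as free RNA alone. In tumour B cells (median depth 5359.5 UMIs in WT and 8131 in KO), Pdcd1 was detected in 1.95% of WT and 0.962% of KO cells, Havcr2 in 1.30% and 4.81%, and Entpd1 in 5.84% and 6.73%. Eomes was detected in 0.649% of WT B cells and in 0 of 104 KO B cells, which allows a share of up to 2.88% (3 counts of the total). Lag3 was detected in 0 of 154 and 0 of 104 B cells, which allows up to 1.95% and 2.88%. Slamf6 was no background there, at 22.1% and 15.4%, since B cells express it. In tumour neutrophils (median depth 3607.5 and 3577 UMIs), Slamf6 was detected in 0.187% and 2.63%, Pdcd1 in 0.561% and 1.32%, and Eomes in 0 of 535 WT cells, which allows up to 0.561%, and 1.32% of KO cells. The CD8 T cell shares of Eomes, Pdcd1, Havcr2 and Lag3 were above the B cell levels in both libraries. For Slamf6 the KO neutrophil share came from 2 of 76 cells, with an interval of 0.320% to 9.18% that holds the KO CD8 T cell share, so the latter is not placed above background.

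**Figure D3:**
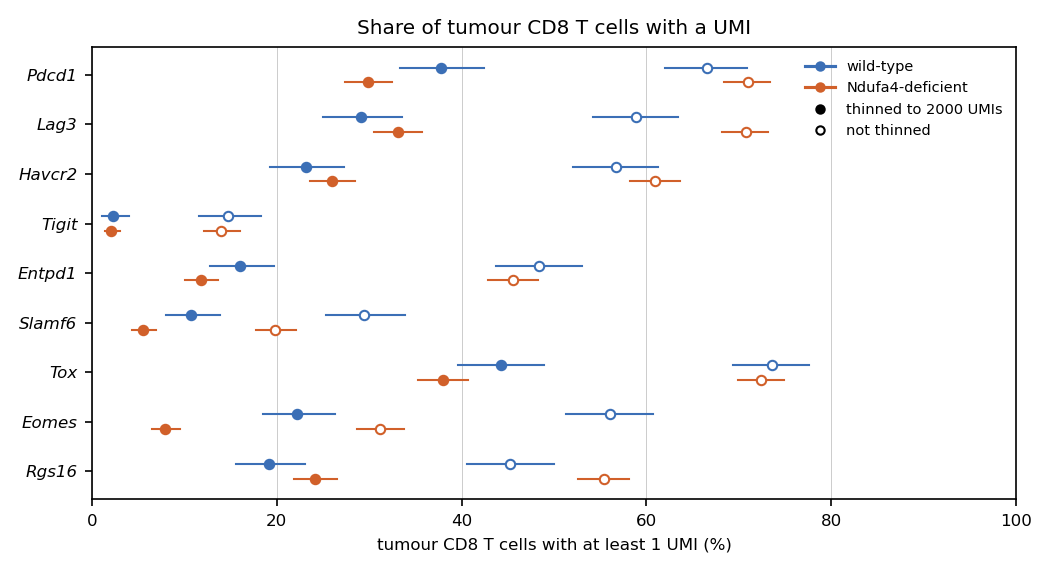
Share of tumour CD8 T cells with a UMI of each gene (percent), by genotype, with 95% exact binomial intervals; filled points are cells thinned to 2000 UMIs and open points are not thinned. After thinning, Eomes is detected in 22.2% of WT and 7.94% of KO cells, while Lag3 and Havcr2 differ by a few points.

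Co-detection of the 4 inhibitory receptors (Pdcd1, Lag3, Havcr2, Tigit) was alike in thinned cells. At least 2 of them were detected in 26.9% of WT and 26.2% of KO cells, a difference of -0.66 points, and at least 3 in 6.67% and 6.07%, a difference of -0.60 points. In unthinned cells both shares were higher in KO, at 62.4% and 70.6% for at least 2 and at 48.4% and 54.3% for at least 3. Cells with Slamf6 and no Havcr2, the progenitor pattern, were 9.78% of WT and 4.82% of KO thinned cells, a difference of -4.95 points (-8.22 to -2.21). Cycling cells, those with at least 2 UMIs of Mki67, Top2a, Ccna2, Cdk1 and Birc5, were 17.8% and 17.7% of thinned cells, and 37.6% and 40.9% unthinned.

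Pairs of genes were compared by the share of cells with both, divided by the product of the single shares, in thinned CD8 T cells. This ratio is given as a description, and cells of 1 library are not replicates. Pdcd1 with Lag3 stood at 1.44 in WT and 1.34 in KO. Slamf6 with Tcf7, the progenitor factor, stood at 2.37 and 3.06, and Havcr2 with Tcf7 at 0.055 and 0.10. In both libraries Slamf6 was thus found with Tcf7, and Havcr2 rarely was.

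The pairs of Eomes depended on the depth. With Pdcd1 it stood at 1.30 in WT (49 cells with both) and 0.853 in KO (26 cells), but at 1.36 and 1.37 when cells were thinned to 1000 UMIs. With Tcf7 it stood at 0.171 in WT, from 3 cells, and 1.02 in KO, from 12 cells. With Slamf6 it stood at 0.75 (8 cells) and 1.95 (11 cells). These last counts are small, and the difference between the libraries was not tested. Rgs16 with Tcf7 was found in 3 cells of each library.

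The lower Eomes level of KO CD8 T cells was met in every state read but 1. In cycling cells (171 in WT and 530 in KO) it was 162 and 40.0 CPM, a log2 ratio of -2.02, and in non-cycling cells 120 and 53.1 CPM, a log2 ratio of -1.18. Among cells with Pdcd1 detected after thinning (170 and 384 cells) it was 165 and 40.6 CPM, a log2 ratio of -2.03 (-2.25 to -1.81). Among cells without Pdcd1 it was 127 and 47.6 CPM, a log2 ratio of -1.42. In cells with Havcr2 detected after thinning (104 and 334 cells) Eomes was 171 and 40.5 CPM, a log2 ratio of -2.08. The exception was the small group with Slamf6 and no Havcr2 (44 and 62 cells), where Eomes was 112 and 105 CPM from 46 and 67 UMIs, a log2 ratio of -0.10 (-0.66 to 0.48).

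Slamf6 was lower in only part of the CD8 T cells. Where Pdcd1 was not detected after thinning, a mixed group that still held Pdcd1 before it, Slamf6 was 60.2 CPM in WT against 30.1 CPM in KO (interval of the log2 ratio -1.24 to -0.76). Where Pdcd1 was detected it was 19.7 and 23.9 CPM, a log2 ratio of 0.28 (-0.17 to 0.75). The 2 intervals do not overlap, though the difference between them was not tested. Other genes of naive and progenitor cells went with Slamf6: where Pdcd1 was not detected, Tcf7 was 138 and 69.1 CPM and Lef1 134 and 46.1 CPM. Tcf7 where Pdcd1 was detected was 13.2 and 19.1 CPM. Tcf7 was picked here after its values were seen. A lower share of naive-like cells and less RNA per cell cannot be told apart in these sums.

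Rgs16 was higher in KO in every state read. In cells with Havcr2 it was at its highest, 275 and 338 CPM (log2 ratio 0.30). It was 186 and 232 CPM in cycling cells (log2 ratio 0.32) and 120 and 195 CPM in non-cycling cells (0.70). With Pdcd1 detected after thinning it was 190 and 249 CPM, and with Pdcd1 not detected 132 and 201 CPM. Among the small group with Slamf6 and no Havcr2 it was lowest, at 34.1 and 64.1 CPM. Lag3 had the same level in cycling cells, 230 CPM in both, and was 199 and 247 CPM in non-cycling cells (log2 ratio 0.32).

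**Figure D4:**
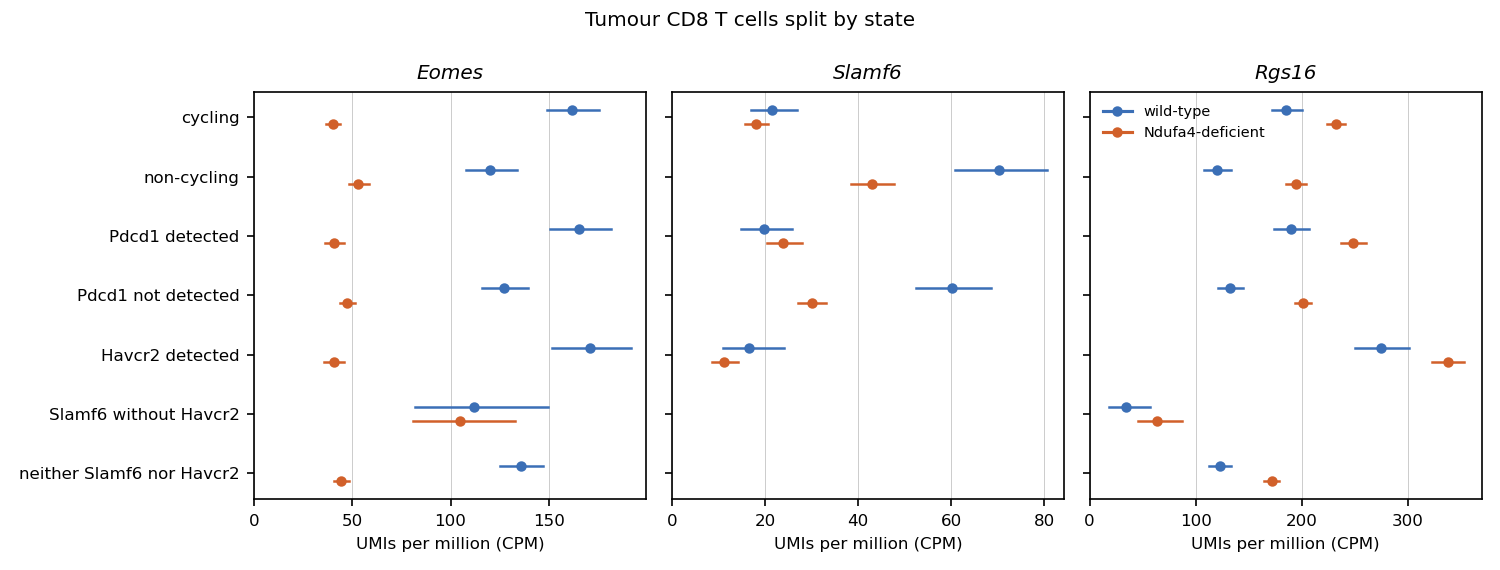
Level of Eomes, Slamf6 and Rgs16 (CPM) in states of tumour CD8 T cells, by genotype, with 95% counting intervals. States split on a gene are left out for that gene. Eomes is lower in KO in each state but the cells with Slamf6 and no Havcr2, where it is 112 and 105 CPM.

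The other genes of the pathway were read in the same CD8 T cells from lists chosen with earlier results of these data known. Of 10 other inhibitory receptors, 2 were higher and 3 lower in KO. Ctla4 was 82.1 CPM in WT against 239 CPM in KO (log2 ratio 1.54), and Klrc1, which encodes NKG2A, 82.7 and 224 CPM (1.44). Cd200r1 was 47.8 and 29.1 CPM (-0.72) and Btla 11.3 and 7.07 CPM (-0.67). The receptors outside the 9 thus moved in both directions.

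Of 14 transcription factors, 6 were higher and 3 lower. Tox2, a relative of Tox, was 12.8 and 2.54 CPM (log2 ratio -2.33). The NR4A factors, which T cell receptor signalling induces, were higher: Nr4a3 15.8 and 50.5 CPM (1.68), Nr4a2 143 and 311 CPM (1.12), and Nr4a1 14.1 and 28.7 CPM (1.03). Of 10 progenitor and naive genes, 1 was higher and 5 were lower. Among the lower genes, Lef1 was 85.8 and 36.8 CPM (-1.22) and Id3 8.19 and 4.99 CPM (-0.72). The 1 higher gene was Xcl1, a chemokine made by activated CD8 T and NK cells as well as progenitors, at 49.2 and 278 CPM (2.50).

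Of 11 effector genes, 4 were higher and 1 lower. Tnf was 4.17 and 17.6 CPM (log2 ratio 2.07), Ifng 146 and 446 CPM (1.61) and Gzma 58.0 and 121 CPM (1.06). The lower gene was Gzmk, a granzyme of pre-effector and memory cells, at 153 and 71.7 CPM (-1.09). Eomes and Gzmk, both lower in KO, were found together more often than the product of their shares, at 1.45 times in WT and 2.44 times in KO.

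Of 9 activation and residency genes, 2 were higher and 2 lower. Icos, a costimulatory receptor, was 64.5 and 140 CPM (log2 ratio 1.12) and Nt5e, which acts after CD39 on extracellular nucleotides, 15.0 and 23.6 CPM (0.66). Itgae was 7.42 and 3.26 CPM (-1.19) and Cd38 54.0 and 34.5 CPM (-0.65). Of 7 genes of the Slam family and its adaptor, Slamf7 was higher, at 36.0 and 77.4 CPM (1.10), and the adaptor Sh2d1a lower, at 207 and 132 CPM (-0.65). Of the 6 relatives of Rgs16 counted, 2 were higher, namely Rgs2 at 31.8 and 217 CPM (2.77) and Rgs1 at 183 and 391 CPM (1.10), and none was lower.

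In tumour regulatory T cells (98 cells in WT and 182 in KO), the members that stood apart were higher in KO: Lag3, Tigit and Rgs16. These were 3 of the 8 members counted, beside 6.24% of the 7895 genes. No member was lower, beside 11.2% of the genes. Markers of other cells also differed in this gate: those of conventional dendritic cells summed to 1092 and 377 CPM (5 and 4 of 5 detected), of neutrophils to 378 and 47.2 CPM (5 and 4 of 5) and of phagocytes to 170 and 490 CPM (8 of 8 in both). Their part in these results was not tested beyond leaving out cells with myeloid or B cell UMIs, which kept the same 3 members higher. With every cell given the same weight the split of all genes became 11.3% higher and 13% lower.

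Lag3 was 110 CPM in WT against 238 CPM in KO (98 and 439 UMIs), 2.17-fold higher with a log2 ratio of 1.12 (0.80 to 1.45). The UMIs lay in 37 of the 98 WT and 115 of the 182 KO cells. Rgs16 was 29.1 CPM (26 UMIs) and 69.4 CPM (128 UMIs), 2.38-fold higher with a log2 ratio of 1.25 (0.64 to 1.92). Tigit was 13.4 and 24.9 CPM, from 12 and 46 UMIs, and its log2 ratio of 0.89 has an interval that reaches 0 (-0.05 to 1.94). The Lag3 and Rgs16 intervals do not reach 0, while Tigit cannot be placed at this depth. Thinned to 2000 UMIs before gating, Rgs16 lost its call with a log2 ratio of 0.06, while Lag3 was at least 1.03 over 12 alternatives.

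The other members counted in these cells differed by under 1.5-fold, with intervals of the log2 ratio that span 0. Those of Havcr2 (-0.20 to 0.61) and Slamf6 (-0.09 to 0.98) reach past 1.5-fold. Pdcd1 was 105 and 99.2 CPM, Havcr2 84.0 and 96.5 CPM, Entpd1 104 and 114 CPM, Tox 127 and 146 CPM, and Slamf6 47.0 and 63.4 CPM. Eomes had 0 and 4 UMIs. Of 8 effector genes counted, 4 were higher, and of 13 transcription factors 3 were higher and 1 lower. Ctla4, the receptor that these cells use to strip CD80 and CD86 from dendritic cells, was 937 and 1576 CPM (log2 ratio 0.75). Il7r was 837 and 371 CPM (-1.18), Nr4a2 13.4 and 49.3 CPM (1.88), and Rgs2 76.1 and 292 CPM (1.94). The cytotoxic genes Prf1 at 15.7 and 55.3 CPM and Nkg7 at 430 and 944 CPM were also higher. The effector genes counted had a median log2 ratio of 0.59 here, 1.69 in tumour mononuclear phagocytes and 1.03 in conventional dendritic cells. T cell markers in those phagocytes summed to 15.8 CPM in WT against 45.5 CPM in KO. The part of free RNA from other cells in the values of regulatory T cells was not tested.

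In tumour conventional CD4 T cells (72 and 140 cells), Pdcd1 and Lag3 were higher and Entpd1 lower in KO. The 2 higher of 7 members counted stand beside 15.9% of the 6877 genes, and the 1 lower beside 11.3%, so with this few members their share does not stand apart from that of all genes. Phagocyte markers summed to 4554 CPM in WT against 287 CPM in KO in this gate, with all 8 markers detected in both. The members' ratios without the cells that held myeloid or B cell UMIs are given beside the main ones.

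Pdcd1 was 37.6 CPM in WT (23 UMIs in 12 cells) and 121 CPM in KO (154 UMIs in 49 cells), a log2 ratio of 1.69 (1.05 to 2.39). It was 1.39 without the cells with myeloid or B cell UMIs. Lag3 was 9.80 and 33.8 CPM, a log2 ratio of 1.79 (0.55 to 3.31), but came from 6 UMIs in 3 cells and 43 UMIs in 17 cells. The 10 highest KO cells held 83.7% of its UMIs, and with at least 3 CD3 UMIs asked of each cell the ratio was 0.69. Without the cells with myeloid or B cell UMIs it was 1.87. Thinning to 2000 or 1000 UMIs before gating took Pdcd1 to 0.58 and 0.06. In this gate 3 members reached the minimum of 30 UMIs at 2000 UMIs per cell and 0 did at 1000. Entpd1 was 35.9 and 22.0 CPM, a log2 ratio of -0.71 whose interval spans 0 (-1.56 to 0.17), and it was 0.05 without the cells with myeloid or B cell UMIs.

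Slamf6, at its highest in these cells, was 176 CPM in WT against 143 CPM in KO (log2 ratio -0.30, and -0.79 without the cells with myeloid or B cell UMIs). Tox was 73.5 and 91.2 CPM (0.31, and 0.21 without them). Havcr2, at 26.1 and 29.9 CPM, went from a log2 ratio of 0.19 to 2.80 without those cells, and Rgs16, at 18.0 and 24.4 CPM, from 0.44 to 1.30. Before any cell was left out, WT held 16 UMIs of Havcr2 in 5 cells, 11 of them in a single cell. It held 11 UMIs of Rgs16 in 4 cells. The ratios without those cells rest on no more UMIs than these and are not placed. Eomes had 1 UMI in WT and 23 UMIs in 9 KO cells, under the minimum of 30. Of 9 effector genes counted, 6 were higher and 2 lower, among them Ifng with 3 UMIs in WT and 68 in KO and Ccl3 at 116 and 17.3 CPM (-2.75). Bhlhe40, a factor of cytokine-producing CD4 T cells, was 109 and 436 CPM (1.99), Cxcr6 101 and 325 CPM (1.68), and Lef1 328 and 86.5 CPM (-1.92). Ikzf2, a factor of regulatory T cells, was 387 and 145 CPM (-1.41) and Itgae 81.7 and 6.29 CPM (-3.70). Xcl1 had 0 UMIs in WT and 167 in KO. The list genes were not read without the cells with myeloid or B cell UMIs, and the part of free RNA from other cells in them was not tested.

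Double-negative T cells, a gate that can hold gamma delta T cells, numbered 115 in WT and 252 in KO. The gamma delta genes found in the files, 2 of the 4 listed, summed to 220 CPM in WT against 439 CPM in KO. Slamf6 was 102 and 45.4 CPM there, a log2 ratio of -1.17 (-1.61 to -0.73), and Entpd1 58.1 and 36.7 CPM (-0.67). Eomes was 27.1 CPM in both libraries. Pdcd1 was 41.3 and 31.0 CPM. In the same gate neutrophil markers summed to 3186 CPM in WT against 352 CPM in KO, conventional dendritic cell markers to 439 and 2576 CPM and phagocyte markers to 2871 and 3212 CPM. Their part in these values was not tested.

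In NK cells the inhibitory receptors had few UMIs, while Eomes was the most counted member. Tumour NK cells numbered 106 in WT and 547 in KO, or 2.75% and 12.4% of the kept cells. Of 8 members counted, Tigit and Rgs16 were at least 1.5-fold higher in KO, beside 8.2% of the 9161 genes, and Lag3 and Havcr2 lower, beside 11.2%. All 4 rest on few UMIs in WT, with 3 for Tigit, 5 for Rgs16, 15 for Lag3 and 25 for Havcr2. Eomes was 323 CPM in WT against 236 CPM in KO (264 and 1006 UMIs), a log2 ratio of -0.45 (-0.65 to -0.25).

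Pdcd1 had 2 UMIs in WT and 13 in KO tumour NK cells. Havcr2 was 30.6 CPM in WT against 9.16 CPM in KO, a log2 ratio of -1.74 (-2.50 to -0.95), but its UMIs came from 5 WT and 14 KO cells. Without the cells that held myeloid or B cell UMIs the ratio was -0.17. Phagocyte markers summed to 1592 CPM in WT against 1323 CPM in KO in this gate and neutrophil markers to 1136 and 123 CPM. The ratio of -0.17 rests on no more than the few UMIs above and is not placed. The part of other cells in the Havcr2 difference was not tested. The remaining calls had intervals that span 0: Lag3 with 15 and 47 UMIs (log2 ratio -0.73, -1.60 to 0.21), Tigit at 3.67 and 6.81 CPM (0.89, -0.80 to 3.25) and Rgs16 at 6.12 and 11.3 CPM (0.88, -0.44 to 2.57). Tox was 60.0 and 48.4 CPM and Slamf6 was 28.1 CPM in WT (log2 ratio -0.50).

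Effector genes were read in the same NK cells. Of 10 counted, 8 were higher in KO and none lower, beside 8.2% and 11.2% of all genes. Their median log2 ratio was 0.725, beside 1.69 for the effector genes counted in tumour mononuclear phagocytes and 1.03 in conventional dendritic cells. Gzmb was 434 and 1230 CPM, Ccl4 160 and 825 CPM (log2 ratio 2.36) and Ifng 41.6 and 156 CPM (1.90). Nr4a2 was 47.7 and 264 CPM (2.47). All of these are known to be induced when NK cells are activated. The part of free RNA from other cells in the values of NK cells was not tested.

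Spleen NK cells were the largest NK gate, with 1179 cells in WT and 2374 in KO. Of 7 members counted, Lag3 and Rgs16 were at least 1.5-fold higher in KO, beside 2.83% of the 11209 genes, and Havcr2 was lower, beside 7.99%. Eomes was 585 CPM in WT against 550 CPM in KO, a log2 ratio of -0.09, Tox 66.5 and 57.5 CPM, Entpd1 72.4 and 81.8 CPM, and Slamf6 9.05 and 8.92 CPM. The lower Eomes level of KO tumour CD8 T cells was thus not met in splenic NK cells, though the difference between the gates was not tested. Pdcd1 had 0 UMIs in both libraries, where 3 counts, the limit that a count of 0 allows, would be 0.494 CPM in WT against 0.279 CPM in KO.

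Havcr2 in spleen NK cells was 18.3 CPM in WT against 4.92 CPM in KO (111 and 53 UMIs), 3.71-fold lower with a log2 ratio of -1.89 (-2.39 to -1.41). It was -1.44 without the cells that held myeloid or B cell UMIs. Phagocyte markers summed to 1625 CPM in WT against 1102 CPM in KO, and erythroid markers to 1048 and 67.0 CPM. The part of the erythroid RNA in the ratio was not tested. Lag3 was 2.47 and 3.99 CPM (log2 ratio 0.69, -0.18 to 1.65) and Rgs16 1.15 and 3.07 CPM from 7 and 33 UMIs (1.41, 0.21 to 2.83). Both levels were a small part of those in tumour CD8 T cells and regulatory T cells.

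The few splenic T cells in the CD11b sort gave values only. CD8 T cells numbered 21 in WT and 55 in KO spleen. In KO they held 187 CPM of Slamf6, 81.6 CPM of Eomes and 43.2 CPM of Tox, and 2.40 CPM each of Pdcd1 and Lag3. In the KO tumour the same gate held 28.0 CPM of Slamf6, 308 CPM of Tox and 240 CPM of Pdcd1. Slamf6 was thus higher in the spleen cells, and Tox and Pdcd1 in the tumour cells. The spleen was sorted on CD11b and the tumour was not, so tissue and sort cannot be told apart here. Conventional CD4 T cells of the spleen (35 and 71 cells) held Slamf6 at 352 CPM in WT against 340 CPM in KO, and Tox at 128 and 134 CPM.

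The ligands were read on the myeloid cells of the tumour. In mononuclear phagocytes Cd274, which encodes the PD-1 ligand PD-L1, was 135 CPM in WT against 194 CPM in KO (log2 ratio 0.52), and Pdcd1lg2, which encodes PD-L2, 11.3 and 18.4 CPM (0.70). In conventional dendritic cells Cd274 was 146 and 171 CPM and Pdcd1lg2 31.4 and 53.9 CPM (0.78). Ceacam1, a proposed TIM-3 partner, was 17.3 and 9.61 CPM there (-0.85). Of the 6 ligand genes counted, 1 was at least 1.5-fold higher in phagocytes, and 1 was higher and 1 lower in dendritic cells. The share over all genes was not computed for these gates, so these counts cannot be set against it. Members on the same cells were Havcr2 at 116 and 119 CPM in phagocytes and Entpd1 at 88.2 and 126 CPM. Lag3 was low there, at 1.82 and 3.57 CPM (log2 ratio 0.98). In conventional dendritic cells Entpd1 was 29.9 and 64.8 CPM (1.12, 0.81 to 1.43) and Havcr2 62.7 and 76.6 CPM (0.29). Lag3 was 6.67 and 14.2 CPM from 27 and 65 UMIs (1.09, 0.42 to 1.79). Slamf6 had 19 and 11 UMIs (-0.97, -2.18 to 0.18). The part of free RNA from T cells in these values was not tested.

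The genes whose levels ran most like each member's were found over 34 profiles (each a gate of at least 50 cells in 1 library) and 8564 genes. The profiles share libraries and depth, so Pearson's r is a description. Rgs16 was the gene most like Pdcd1 (r = 0.907), followed by Gstp3 (0.904). The genes most like Tox were Zap70 (0.968), Sh2d2a (0.946) and Cd27 (0.944). Those most like Eomes were Ifitm10 (0.958), Samd3 (0.947) and Klre1 (0.936). Slamf6 ran with Fam169b (0.902) and Trib2 (0.896), and Havcr2 with Agpat4 (0.850) and S100a4 (0.849). The closest genes were Ech1 for Lag3 (0.873), Ciapin1 for Tigit (0.932) and Map1lc3b for Entpd1 (0.845). Among pairs of members, r ran from -0.482 for Entpd1 with Slamf6 to 0.907 for Pdcd1 with Rgs16.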

How the data were processed

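Droplet single-cell RNA sequencing (10x Chromium 3′ v3.1 kit, per the labels' protocols) gave 4 matrices, 1 per pooled library. The deposited matrices hold raw UMI counts per gene and barcode, with gene names and barcodes as text in other deposited files. Version 6.0.0 of Cell Ranger stands in the file headers. Per the submitters' processing notes the tools were Seurat 3.1 and 3.1.4 and Cell Ranger 3.1, with the builds mm10 and GRCm38. No source names the barcode filter the authors used.

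Cells with at least 200 genes, 500 UMIs and at most 10% mitochondrial UMIs were kept. Doublet scores were computed by simulated doublets (a re-implementation of the Scrublet method with the share set by the number of barcodes), which removed 158 to 489 barcodes per library. A T cell had at least 2 UMIs of Cd3d, Cd3e and Cd3g. CD8 T cells also had Cd8a or Cd8b1 and no Cd4 or Foxp3, regulatory T cells Foxp3 and no Cd8a or Cd8b1, and conventional CD4 T cells Cd4 alone of these. NK cells had Ncr1, at most 1 CD3 UMI and none of the other genes. B cells, dendritic cells, neutrophils and phagocytes were gated on their own markers among the rest. The gating genes are not reported as results.

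Summed counts were given as CPM with exact Poisson limits, ratios with exact conditional binomial intervals and shares with Clopper-Pearson intervals, their differences with Newcombe intervals. These cover counting error only. All ran in Python 3.11.15 with numpy 2.4.6, scipy 1.17.1 and pandas 2.3.3. The call was tested on simulated data made from tumour CD8 T cells: of genes made 2-fold higher 99% of 100 were called, of genes made 0.5-fold 95.7% of 93, and of 11741 unchanged genes 2.39% were called higher and 1.40% lower. Of 11934 intervals, 95.9% held the true value. The simulated sums were drawn as Poisson counts, the model that the intervals assume, so a share near 95% was built in. Uneven counts between cells, as met in the real data, were not simulated, and neither the coverage nor the call rates speak for them.

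The members and gene lists were chosen with earlier results of these data known. All 9 members are named, and from each list up to 4 genes per comparison, those with the largest log2 ratio in size among genes with at least 50 UMIs over both libraries. A gene that this rule would name is not reported here. The alternatives were other CD3 minimums, cells with myeloid or B cell UMIs left out, thinning to 2000 or 1000 UMIs before gating, doublets kept, a 20% mitochondrial limit, other scalings, cycling cells left out, at least 100 UMIs per gene, and shared barcodes left out. Leaving out the 10 highest cells per library was added after seeing the data.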

Additional observations from a re-analysis of the deposited data

Results flagged for a closer look

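Lag3 in NK cells stood apart because its ratio went opposite ways in the 2 tissues. The log2 ratio of KO over WT was -0.73 in tumour NK cells (15 UMIs in WT and 47 in KO) and 0.69 in spleen NK cells (15 and 43 UMIs). The difference between the tissues was not tested, there is 1 library per group, and the intervals of both ratios span 0.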

How the results depend on the processing

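In tumour CD8 T cells the log2 ratio of Eomes ran from -1.68 to -1.18 over 12 alternatives, that of Slamf6 from -0.83 to -0.48 and that of Rgs16 from 0.43 to 0.70. Of these 12, thinning to 1000 UMIs alone took Slamf6 under 1.5-fold, and leaving out its 10 highest cells, chosen after seeing the data, did so too (-0.40). Of 134 alternative values of the counts of members called and of the shares, 104 stayed and 30 moved, where moved means by over 1.5 times for a count and outside the main interval for a share. Of 486 alternative values of single members, 404 stayed within the main interval. Of 468 alternative log2 ratios, 32 changed sign, 17 of them after thinning before gating, and 7 of the 32 were of a member at least 1.5-fold apart in the main values.

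These 7 were as follows. Without cells with myeloid or B cell UMIs, Entpd1 in conventional CD4 T cells became 0.054. Thinned to 2000 UMIs, Tigit in tumour NK cells became -1.20, Rgs16 there -0.029 and Lag3 in spleen NK cells -0.72. Thinned to 1000 UMIs, Tigit in tumour NK cells became -1.02, Tigit in regulatory T cells -0.072 and Rgs16 in spleen NK cells -0.13. Tigit in CD8 T cells, under 1.5-fold in the main values, went from -0.19 to 1.204 when thinned to 2000 UMIs. The cause was not tested.

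Counts of members called moved by over 1.5 times as follows. With at least 1 CD3 UMI, conventional CD4 T cells had 0 lower and tumour NK cells 1 higher. With at least 3, conventional CD4 T cells had 1 higher. Without cells with myeloid or B cell UMIs, tumour NK cells had 1 higher and 0 lower. Thinned to 2000 UMIs, CD8 T cells had 2 higher (Tigit and Rgs16), regulatory T cells 1 lower, conventional CD4 T cells 0 higher and 0 lower, tumour NK cells 0 higher, and spleen NK cells 0 higher and 0 lower. Members counted at that depth were 9, 7, 3, 2 and 3 in these gates, in that order. WT conventional CD4 T cells fell to 46, under the minimum of 50 cells. Thinned to 1000 UMIs, regulatory T cells had 1 higher (Lag3), conventional CD4 T cells 0 and 0, tumour NK cells 0 and 0, and spleen NK cells 1 higher (Entpd1) and 0 lower. Members counted there were 1, 0, 1 and 3, in that order. The gates other than spleen NK cells held 39, 23 and 47 WT cells. For a member that was not counted, the lack of a call followed from the minimum of 30 UMIs and says nothing of its level. With doublets kept, conventional CD4 T cells had 0 lower and spleen NK cells 1 higher. Without cycling cells, CD8 T cells had 1 higher (Rgs16) and conventional CD4 T cells 2 lower. With at least 100 UMIs per gene, conventional CD4 T cells had 1 higher and 0 lower, tumour NK cells 0 and 0, and spleen NK cells 0 higher. Members counted were then 3, 4 and 5, in that order. Without thinning, the difference in CD8 T cells with at least 2 receptors became 8.16 points and that with at least 3 became 5.93 points.

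Smaller moves from 2 to 3 were met in conventional CD4 T cells (higher) without cells with myeloid or B cell UMIs, with doublets kept and with equal weight per cell, and in tumour NK cells (lower) without cycling cells. The median log2 ratio of all genes moved by over 0.1 in regulatory T cells (0.11) and tumour NK cells (0.10) when thinned to 1000 UMIs. No paired analysis was possible because each group is 1 pooled library. Differences between mice cannot be seen, and the calls in conventional CD4 T cells and NK cells rest on few UMIs.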
